A study of Mus musculus with 8 samples.

Results

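Genes of proximal tubular acid and sodium handling, 7 of the 55401 genes in the deposited table, were followed in kidney RNA of diabetic mice treated with rFGF4 and of diabetic control mice. They were taken by gene name: *Slc9a3*, *Car4*, *Car2*, *Slc4a4*, *Atp1b1*, *Fxyd2* and *Glud1*. The rule itself uses no measured value. All 7 passed the filter on low values, which asked for 0.5 FPKM in no fewer than 4 libraries. FPKM is a fragment count corrected for exon length and for the mapped fragments in a library.

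The proximal tubule reclaims most of the filtered bicarbonate. NHE3, the product of *Slc9a3*, secretes protons into the lumen in exchange for sodium, and carbonic anhydrase on the luminal membrane (*Car4*) and in the cytosol (*Car2*) interconverts bicarbonate and carbon dioxide on both sides of that membrane. NBCe1 (*Slc4a4*) then returns bicarbonate with sodium to the blood side, and the sodium pump, whose beta1 subunit is encoded by *Atp1b1* and whose gamma subunit by *Fxyd2*, keeps cell sodium low. Glutamate dehydrogenase (*Glud1*) releases ammonium from glutamate in the mitochondria, which lets the same cells make new bicarbonate. *Car2*, *Atp1b1*, *Fxyd2* and *Glud1* are also made in other kidney cells.

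Each library came from the kidney of 1 mouse, with 4 mice in each group. The control group carries the label of the db/db model of diabetic kidney disease, which rests on loss of the leptin receptor, and the other group that of rFGF4 treatment, a modified, non-mitogenic recombinant FGF4. The labels give no dose, schedule, age, sex or strain. For db/db animals the study's methods describe male mice on the C57BLKS/J background, with rFGF4 injected intraperitoneally every other day and PBS as vehicle, but they do not tie this schedule to the sequenced mice. The paper's text calls the sequenced mice STZ-induced, and the files do not settle which diabetes model was used. Both groups are diabetic, so no healthy kidney stands beside the values. The rFGF4-treated mice carry the numbers 1, 2, 3 and 5, the db/db mice 2, 3, 4 and 5, and values below are given in that order.

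Libraries were compared before the genes. The FPKM of a library summed to 389407 to 529835 in the rFGF4 group and 481321 to 552604 in the db/db group, and mitochondrial transcripts made up 19.0% to 36.0% and 24.4% to 38.4% of it. The table holds no counts, so the number of fragments behind a value is unknown and no counting interval can be given. rFGF4 mouse 1 and db/db mouse 5 stood apart from the others, with a median Spearman's rho across genes of 0.879 and 0.875 with the other 7 libraries, against 0.907 to 0.935 for the other 6. The summed FPKM of 6 macrophage markers was 1198 and 1728 in these 2 libraries and 43.3 to 428 in the rest. That of 7 lymphocyte markers was 2753 in rFGF4 mouse 1 and 23372 in db/db mouse 5, and 26.6 to 1427 in the rest.

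Kidney identity was checked on 10 proximal tubule markers, and 10 of 10 were detected and passed the filter. Their summed FPKM was 476, 1669, 2198 and 2067 with rFGF4, against 2199, 1362, 2462 and 1547 in db/db mice. rFGF4 mouse 1 was the lowest of the 8 libraries for 9 of the 10 markers, the exception being *Slc13a1*, a sulfate transporter. The marker levels of this mouse were 5.05% to 119% of the median of the 6 libraries other than it and db/db mouse 5, with a median of 35.7%. Those of db/db mouse 5 were 48.0% to 90.1% of the same medians, with a median of 64.5%, so that 10 of 10 lay below them. rFGF4 mouse 1 was also the lowest library for 4 of the 7 genes. In RNA of kidney tissue, a smaller share of tubular cells and less RNA per tubular cell cannot be told apart.

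**Figure D1:**
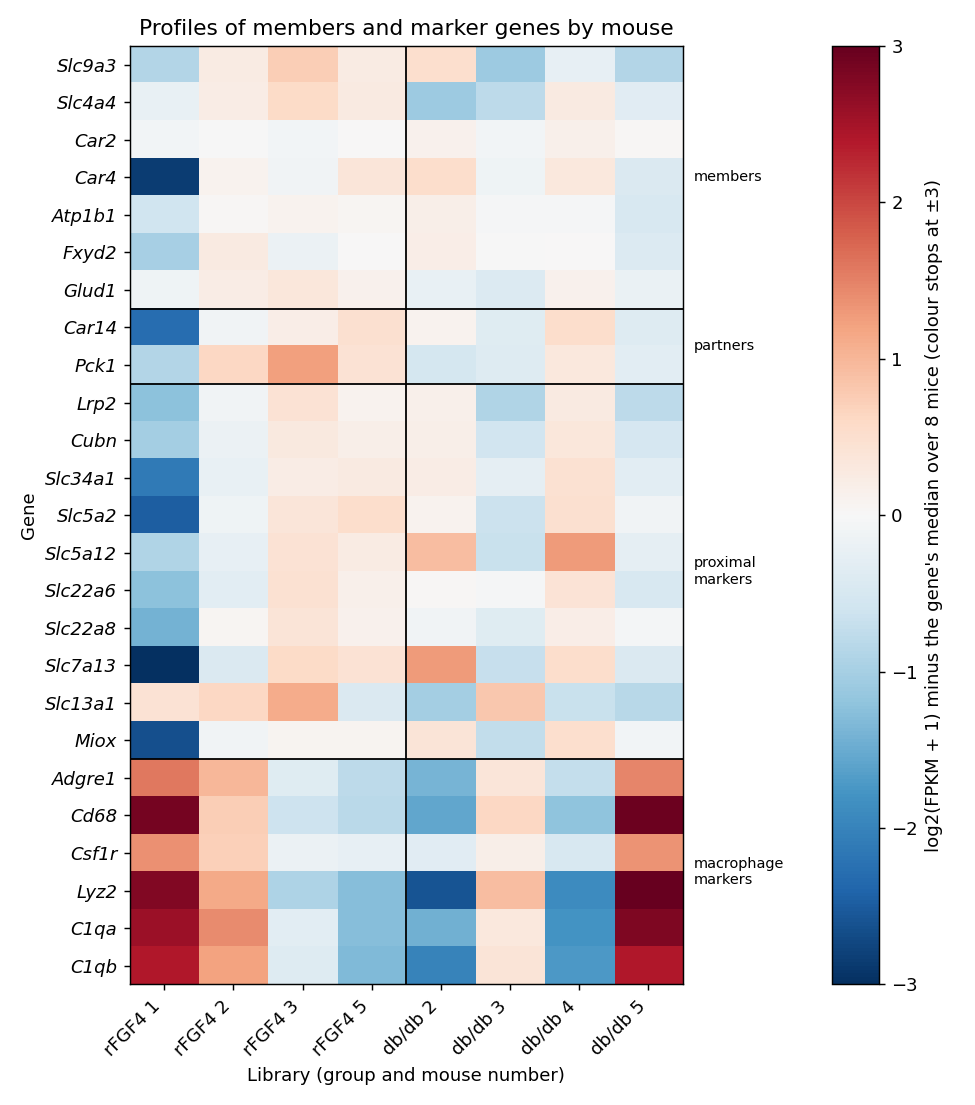
Heat map of log2(FPKM + 1), each gene minus its median over the 8 mice, with libraries as columns (rFGF4 left, db/db model right) and the 7 genes, 2 partner genes, 10 proximal tubule markers and 6 macrophage markers as lines. The column of rFGF4 mouse 1 is low for 9 of 10 proximal markers and for *Car4* and *Car14*, while macrophage markers are high there and in db/db mouse 5.

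The 7 genes covered a wide range of levels, and the order was much the same in each mouse. Mean FPKM over the 8 libraries, which is per exon length and so can be set side by side, was 751 for *Atp1b1*, 320 for *Fxyd2*, 139 for *Car2*, 117 for *Glud1*, 48.9 for *Car4*, 38.1 for *Slc4a4* and 17.7 for *Slc9a3*. By this mean *Atp1b1* ranked 42nd and *Slc9a3* 2463rd of the 15150 genes tested. *Atp1b1* exceeded *Fxyd2*, and *Fxyd2* exceeded *Car2*, in 8 of 8 libraries. *Car2* exceeded *Glud1* in 7 of 8, *Car4* exceeded *Slc4a4* in 6 of 8, and *Slc4a4* exceeded *Slc9a3* in 7 of 8, so that these neighbours changed places in at least 1 mouse. Together the 7 genes made up 0.310% to 0.494% of the FPKM outside the mitochondrial genome in the rFGF4 group and 0.315% to 0.484% in the db/db group, and the lowest share in each group was that of rFGF4 mouse 1 and db/db mouse 5.

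**Figure D2:**
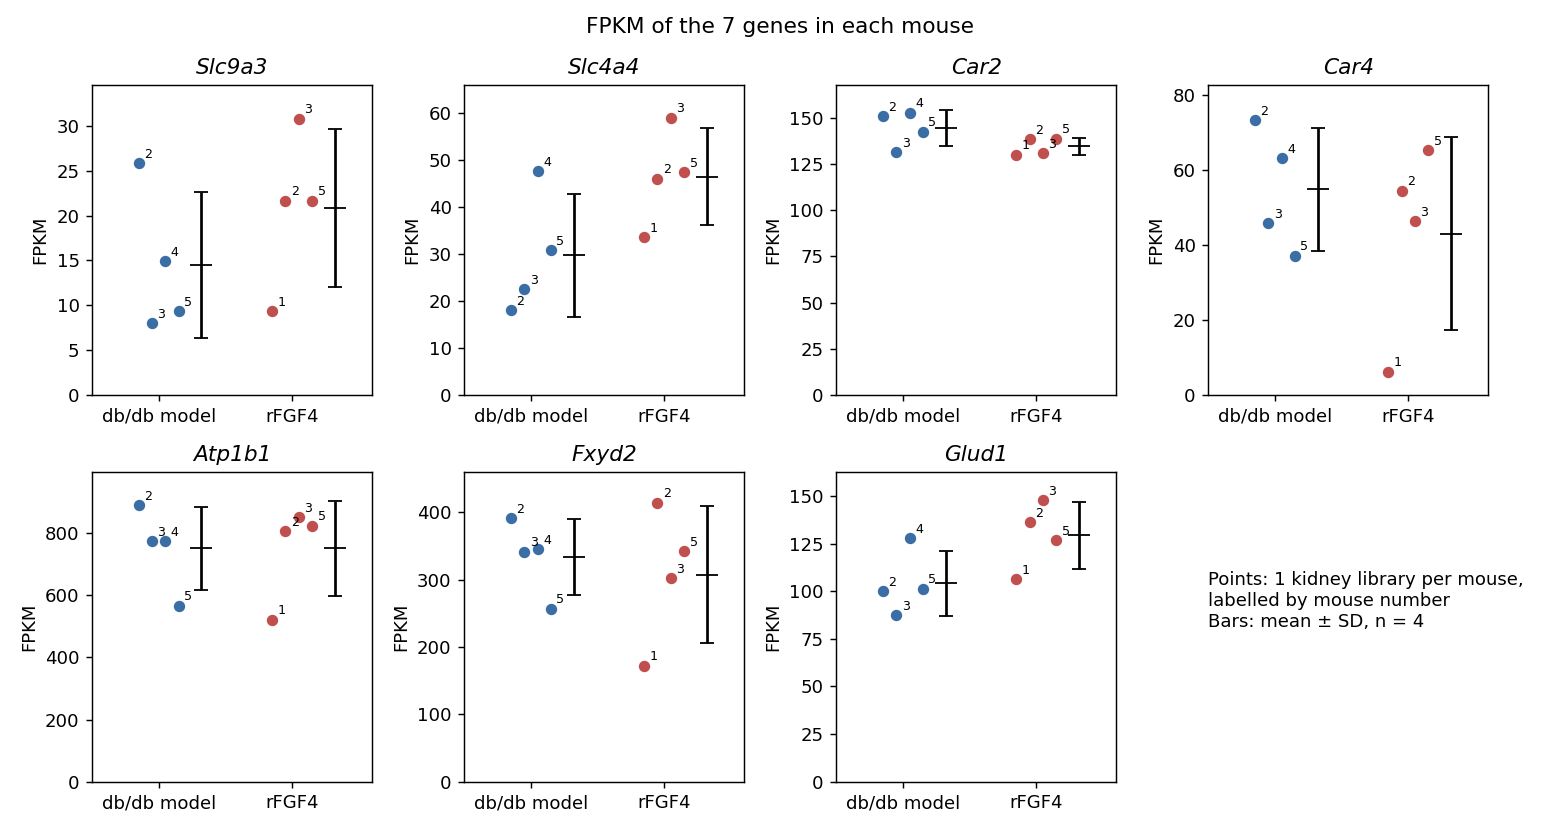
FPKM of each of the 7 genes (vertical axes, from 0) in the db/db model (blue) and rFGF4 (red) groups, with 1 point per mouse labelled by its number and bars for the mean ± SD of 4 mice. The groups overlap for every gene, *Car4* of rFGF4 mouse 1 lies at 6.15, and *Car2* stays between 130 and 153 throughout.

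Between groups, *Slc4a4* was the one gene of the 7 to pass the threshold the study used, which asks for an unadjusted p below 0.05 together with a fold of 1.5 upwards or 0.67 downwards. That is 1 of 7, where 1.53% of all tested genes passed it in either direction, 1.09% as higher and 0.442% as lower in rFGF4. Without the limit on fold, 1 of 7 passed, against 4.62% of all genes (3.56% higher and 1.06% lower). No adjusted p was under 0.05 for the 7 genes (0.918 to 0.998, limma with Benjamini-Hochberg adjustment over 15150 genes) or for any other gene. The 4.62% with an unadjusted p below 0.05 are 700 genes, no larger a share than that limit allows when no gene differs. In 0 of the 7 did all mice of one group lie beyond all mice of the other, which 3.33% of tested genes did, 2.66% with the treated mice higher. The log2 fold change, taken on log2(FPKM + 1) as rFGF4 against db/db, was above 0 for 3 of the 7 genes and below 0 for 4, with a median of -0.01 beside 0.09 for all tested genes. With FPKM scaled to equal sums (TPM), which moves the median of all tested genes to 0.26, *Car2*, *Atp1b1* and *Fxyd2* turned above 0, at 0.13, 0.22 and 0.06, and 2 of 7 genes had an unadjusted p below 0.05 (7.61% of all genes) and 1 passed the study's threshold (3.54%). This log scale understates the change of genes at low FPKM. The p-values weigh the difference between groups against the variation between these mice. Nothing in the labels describes the animals beyond their group and number, so whether the mice are independent of each other is not known.

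**Figure D3:**
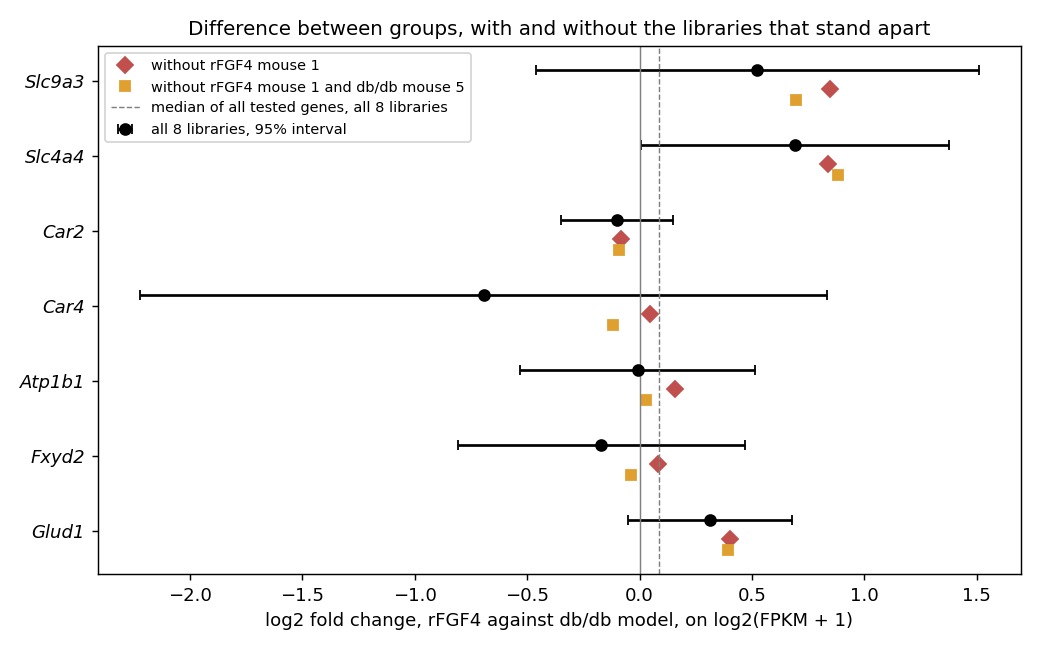
log2 fold change of rFGF4 against the db/db model for the 7 genes (horizontal axis), with black points and bars for the limma estimate and its 95% confidence interval over 8 libraries, red diamonds without rFGF4 mouse 1, and orange squares without that mouse and db/db mouse 5. The interval of *Slc4a4* begins at 0.01 and those of the other 6 genes span 0, while *Car4* moves from -0.69 to 0.05 when rFGF4 mouse 1 is left out.

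*Slc9a3* encodes NHE3, the apical sodium-hydrogen exchanger, and lies on chromosome 13 (chr13:74121457-74169442, plus strand, GRCm38). Its FPKM was 9.32, 21.6, 30.8 and 21.7 in rFGF4-treated mice and 25.8, 7.96, 14.9 and 9.31 in db/db mice. The ranges overlapped almost wholly, since 1 treated mouse lay above the highest control and the lowest values of both groups were alike. The means, 20.8 ± 8.81 (SD, n = 4) for treated and 14.5 ± 8.14 (SD, n = 4) for control mice, differed by less than either SD. In log2 the fold change was 0.52 (standard error 0.43, 95% interval -0.46 to 1.51, exact permutation p = 0.343). With each mouse left out in turn it ran from 0.31, without rFGF4 mouse 3 or without db/db mouse 3, to 0.85, without rFGF4 mouse 1, and it was 0.83 without db/db mouse 2 and 0.70 without rFGF4 mouse 1 and db/db mouse 5. None of these passed an unadjusted p of 0.05 in limma.

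Of the other exchangers and NHE3 partners, 1 gene passed the study's threshold, *Chp1*, which encodes a calcium-binding cofactor of sodium-hydrogen exchangers. Its FPKM was between 11.9 and 16.1 in the treated mice and between 4.46 and 10.5 in db/db mice, so that every treated mouse lay above every control. The log2 fold change was 0.84 (standard error 0.24, adjusted limma p = 0.918), and the exact permutation p was 0.0286, the smallest that 4 mice against 4 allow. It ranged from 0.62 to 0.98 with each mouse left out in turn and was 0.74 without rFGF4 mouse 1 and db/db mouse 5, and it passed an unadjusted p of 0.05 each time. Of the 13 genes of this list 11 were tested, with 1 higher and 0 lower at an unadjusted p below 0.05 and a median log2 fold change of 0.05. *Slc9a3r1* (NHERF1) and *Pdzk1*, scaffold proteins of the brush border, had log2 fold changes of 0.03 and -0.09, and *Slc26a6*, an apical anion exchanger, one of 0.19 at a mean FPKM of 1.76 and 1.36. Without rFGF4 mouse 1 these values were 0.12 for *Slc9a3r1*, 0.12 for *Pdzk1* and 0.27 for *Slc26a6*, and without rFGF4 mouse 3 they were -0.04, -0.18 and -0.0065. The exons of *Pdzk1* overlap those of other genes.

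*Car4* encodes the carbonic anhydrase anchored to the luminal membrane (chr11:84957786-84966044, plus strand). The FPKM was 6.15, 54.4, 46.3 and 65.3 with rFGF4, against 73.2, 45.8, 63.2 and 37.2 in db/db mice. Mouse 1 of the rFGF4 group held 10.5% of the median of the 6 libraries outside it and db/db mouse 5, and the other 3 treated mice fell within the range of the controls. The log2 fold change was -0.69 (standard error 0.67, 95% interval -2.22 to 0.84, exact permutation p = 0.60), and it was 0.05 without rFGF4 mouse 1 and -0.12 without both libraries that stood apart. *Car14*, the other membrane-bound carbonic anhydrase typical of the proximal tubule, was low in the same mouse, at an FPKM of 8.08 where the other 7 libraries held 32.9 to 62.7.

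*Car2*, the cytosolic carbonic anhydrase, was the steadiest of the 7 (chr3:14886273-14900770, plus strand). Its FPKM was 130, 138, 131 and 139 with rFGF4 and 151, 131, 153 and 143 in db/db mice, a coefficient of variation over the 8 libraries of 6.33%. The libraries that stood apart for *Car4* did not do so here. The log2 fold change was -0.10 with an interval of -0.35 to 0.15 (exact permutation p = 0.114). The ratio of *Car4* to *Car2* within a library, which does not depend on the scaling of that library, was 0.0473 in rFGF4 mouse 1 and 0.353 to 0.471 in the other treated mice, and 0.261 to 0.485 in db/db mice.

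Among 14 further carbonic anhydrases, 11 were tested, with 1 higher and 1 lower at an unadjusted p below 0.05 and a median log2 fold change of -0.23. *Car5b*, a mitochondrial enzyme, was the higher one, at 8.91 ± 0.997 (SD, n = 4) with rFGF4 and 6.91 ± 0.796 (SD, n = 4) in db/db mice. All 4 treated mice exceeded all 4 controls, with a log2 fold change of 0.33 (adjusted limma p = 0.918, exact permutation p = 0.0286). It lay between 0.26 and 0.38 with each mouse left out and no longer passed an unadjusted p of 0.05 without rFGF4 mouse 1 or 3 or db/db mouse 3 or 4. The lower one, *Car7*, was near the limit of the filter at 0.687 ± 0.244 (SD, n = 4) and 1.23 ± 0.364 (SD, n = 4), with a log2 fold change of -0.40. This ran from -0.49 to -0.31 with each mouse left out and did not pass without rFGF4 mouse 1, 2 or 3 or db/db mouse 3 or 5. *Car12*, *Car14* and *Car15* had log2 fold changes of -0.18, -0.40 and -0.23. Without rFGF4 mouse 1 those of *Car12* and *Car14* were 0.0016 and 0.22, and without db/db mouse 3 that of *Car15* was 0.10. The exons of *Car14* and *Car15* overlap those of neighbouring genes.

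*Slc4a4* encodes the basolateral sodium-bicarbonate cotransporter NBCe1 and spans chr5:88886818-89239653 on the plus strand. Its FPKM was 33.6, 46.0, 59.0 and 47.5 with rFGF4, against 18.0, 22.5, 47.7 and 30.8 in db/db mice. In the control group 3 of 4 mice lay below every treated mouse and db/db mouse 4 lay among them, so that 1 treated mouse exceeded the highest control. Means of 46.5 ± 10.4 (SD, n = 4) with rFGF4 and 29.7 ± 13.1 (SD, n = 4) without it gave a log2 fold change of 0.69. Its standard error was 0.30, its 95% interval 0.01 to 1.38 and its adjusted p in limma 0.918. An exact permutation test gave p = 0.114.

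The call on *Slc4a4* rested on a narrow margin. Its log2 fold change was 0.84 without rFGF4 mouse 1, and 0.88 without that mouse and db/db mouse 5, the libraries with high immune markers. In both fits it was the 1 gene of the 7 past the study's threshold, which 1.33% and 1.8% of all tested genes passed. It no longer passed an unadjusted p of 0.05 when any one of rFGF4 mouse 2, 3 or 5 or db/db mouse 2, 3 or 5 was left out, with log2 fold changes from 0.49 to 0.74. With libraries scaled to a common median ratio it was 0.60 and did not pass, which left 0 of 7 at either call (4.89% of all genes at an unadjusted p below 0.05 and 1.21% at the study's threshold).

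The deposited value of *Slc4a4* joins 10 transcripts that begin at separate start sites, and the renal form is known to begin at an internal one. Of the 8 of them found in GENCODE M21, 4 begin within 500 bases of the upstream RefSeq start and 3 within 500 bases of the internal one, so the gene's FPKM does not say which form differed. The 250 bases before the internal start of *Slc4a4* (chr5:89027716-89027965, plus strand, GRCm38.p6, RefSeq) and before the start of *Slc9a3* (chr13:74121163-74121412, plus strand) are shown to set the entry and exit steps of the bicarbonate route side by side, with CG pairs in capitals.
Slc4a4 internal start: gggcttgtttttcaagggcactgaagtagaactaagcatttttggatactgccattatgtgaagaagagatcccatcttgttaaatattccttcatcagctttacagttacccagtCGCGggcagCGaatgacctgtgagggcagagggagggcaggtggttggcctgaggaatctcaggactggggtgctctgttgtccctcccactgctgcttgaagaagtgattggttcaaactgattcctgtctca
Slc9a3 start: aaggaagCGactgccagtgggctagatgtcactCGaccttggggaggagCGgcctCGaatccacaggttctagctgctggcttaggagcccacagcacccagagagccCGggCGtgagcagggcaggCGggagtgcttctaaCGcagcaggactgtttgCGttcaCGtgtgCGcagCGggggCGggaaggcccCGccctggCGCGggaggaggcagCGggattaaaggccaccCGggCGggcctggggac
The window of *Slc4a4* holds 3 CG pairs at 48.8% G and C, and that of *Slc9a3* 19 at 67.6%. The window before the upstream *Slc4a4* start, which overlaps an annotated exon and is not shown, holds 44 at 82.0%. The FOXO core motif GTAAACA was searched on both strands in the 6 RefSeq windows found for *Slc9a3*, *Slc4a4* (both starts), *Car4*, *Atp1b1* and *Glud1*, each from 250 bases before to 50 after the start. It was in 0 of these 6 and in 3.65% of 32851 windows of all genes, and 0 of 6 also held the cAMP response element TGACGTCA, found in 1.79% of all windows.

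NHE3 and NBCe1 stand at the entry and exit of the same route, but their transcripts did not keep a fixed ratio. *Slc4a4* to *Slc9a3* was 3.60, 2.13, 1.92 and 2.19 in rFGF4-treated mice and 0.697, 2.82, 3.20 and 3.31 in db/db mice. The low value belonged to db/db mouse 2, which had the lowest *Slc4a4* and the second-highest *Slc9a3* of the 8 mice. Of the 9 other SLC4 family genes listed, 5 were tested and 0 had an unadjusted p below 0.05 (median log2 fold change -0.12). *Slc4a2*, a widely expressed anion exchanger whose exons overlap another gene, had a log2 fold change of 0.15.

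**Figure D4:**
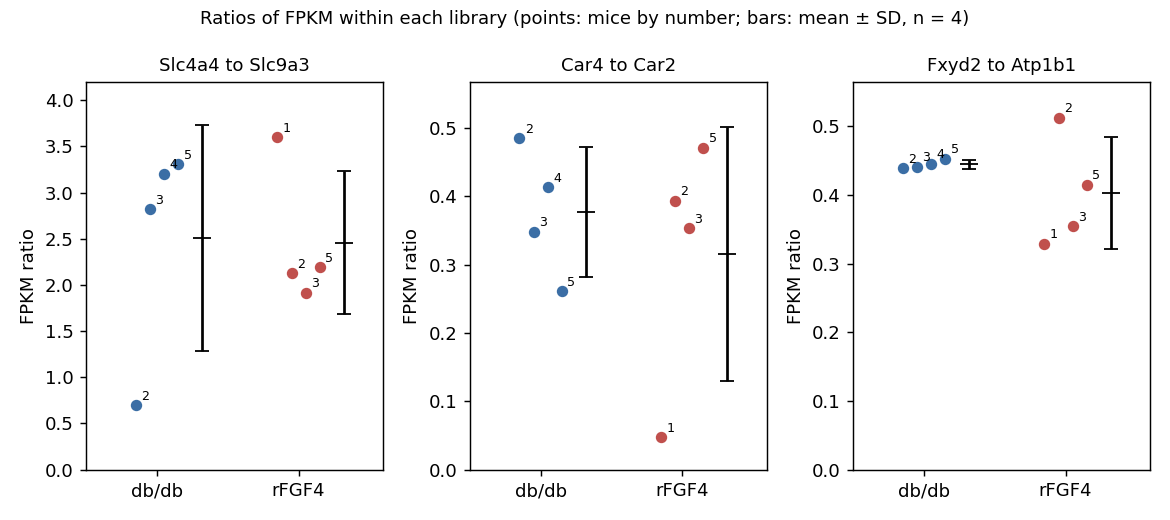
Ratio of FPKM between pairs of genes within each library (vertical axes, from 0), for db/db mice in blue and rFGF4-treated mice in red, with points labelled by mouse number and bars for the mean ± SD of 4 mice. *Fxyd2* to *Atp1b1* lies between 0.439 and 0.453 in the 4 db/db mice and between 0.329 and 0.513 in the rFGF4 group, and *Slc4a4* to *Slc9a3* is below 1 in db/db mouse 2.

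*Atp1b1* encodes the beta1 subunit that brings the sodium pump to the cell surface (chr1:164437109-164458355, minus strand). Its exons overlap those of *Nme7* on the opposite strand, so reads of the 2 genes may be mixed. The FPKM was 522, 807, 851 and 824 with rFGF4 and 890, 774, 774 and 566 in db/db mice. In each group 1 library was low, rFGF4 mouse 1 and db/db mouse 5, and the other 3 of each group lay between 774 and 890. Both means were 751, with SDs of 154 and 135 (n = 4 each), and the log2 fold change was -0.01 with an interval of -0.53 to 0.51. It was 0.16 without rFGF4 mouse 1 and 0.03 without these 2 libraries.

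*Fxyd2*, the gamma subunit that tunes the pump's affinity for its ions, lies at chr9:45399669-45410278 on the plus strand. FPKM values of 172, 414, 302 and 342 were found with rFGF4 and of 391, 341, 345 and 257 in db/db mice. The same 2 libraries were the lowest of their groups, at 50.0% and 74.7% of the median of the other 6. The log2 fold change was -0.17 with an interval of -0.81 to 0.47. It was 0.08 without rFGF4 mouse 1, -0.34 without rFGF4 mouse 2, -0.09 without db/db mouse 2 and -0.29 without db/db mouse 5.

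The 2 pump subunits had the most similar profiles of any pair among the 7 genes. The root mean square difference between their log2(FPKM + 1) values over the 8 libraries, each centred on its own mean, was 0.19, where that of *Slc4a4* and *Car4*, the least similar pair, was 1.13. *Fxyd2* to *Atp1b1* was 0.329, 0.513, 0.354 and 0.415 with rFGF4 and 0.439, 0.441, 0.446 and 0.453 in db/db mice, with SDs of 0.0817 and 0.00618. Control mice thus held nearly 1 ratio, db/db mouse 5 included, and the treated mice lay on both sides of it. The difference in spread was seen after the values were known and was not tested.

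Of 12 further pump and FXYD genes 8 were tested, and 0 passed an unadjusted p of 0.05 (median log2 fold change 0.11). *Atp1b3*, another beta subunit, had a log2 fold change of 0.09.

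*Glud1* encodes glutamate dehydrogenase (chr14:34310727-34345265, plus strand). Its FPKM was 106, 136, 148 and 127 with rFGF4 and 100, 87.3, 128 and 101 in db/db mice. Of the treated mice, 2 of 4 exceeded the highest control, db/db mouse 4, and all 4 exceeded the other 3 controls. With means of 129 ± 17.5 (SD, n = 4) and 104 ± 17.0 (SD, n = 4) the log2 fold change was 0.31 (standard error 0.16, 95% interval -0.05 to 0.68), and an exact permutation test gave p = 0.0857. Without rFGF4 mouse 1 it was 0.40, which brings the genes with an unadjusted limma p below 0.05 to 2 of 7, where 4.23% of all tested genes passed. Without db/db mouse 5 as well it was 0.39 and did not pass, which left 1 of 7, beside 5.68% of all genes. Leaving out 1 mouse at a time gave values from 0.23, without db/db mouse 3, to 0.42, without db/db mouse 4, where it also passed.

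The same ordering of mice was found in part for *Pck1*, phosphoenolpyruvate carboxykinase, which takes up the carbon left when ammonia is released. Its FPKM was 608, 1710, 2641 and 1512 with rFGF4 and 771, 848, 1379 and 904 in db/db mice. In all, 3 treated mice lay above all 4 controls and rFGF4 mouse 1 below them, with a log2 fold change of 0.59 (exact permutation p = 0.314). The value was 0.997 without that mouse and 0.97 without both libraries that stood apart, and then passed an unadjusted p of 0.05 in limma. Without rFGF4 mouse 3, the highest of the 8, it was 0.29 and did not pass.

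Of the 11 ammonia genes listed besides *Glud1*, 10 were tested, and 0 passed an unadjusted p of 0.05 in either direction, with a median log2 fold change of 0.01. Log2 fold changes were 0.07 for *Glul*, which makes glutamine and whose exons overlap other genes, 0.02 for the glutamine transporter *Slc38a3*, 0.00 for the aminotransferase *Got1* and -0.48 for *Rhcg*, an ammonia channel of the distal nephron. Without rFGF4 mouse 1 they were 0.21, 0.14, 0.097 and -0.31, and without db/db mouse 3 that of *Rhcg* was -0.29. *Rhcg* passed an unadjusted p of 0.05 in limma without rFGF4 mouse 5 (-0.66) or db/db mouse 5 (-0.65).

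Regulators of proximal acid and sodium transport were given by 9 genes, all tested, of which 0 passed an unadjusted p of 0.05 (median log2 fold change 0.19). *Ahcyl1* (IRBIT), a protein that binds NBCe1 and NHE3, was higher in all 4 treated mice than in any control, at 26.3 ± 1.53 (SD, n = 4) against 22.9 ± 1.36 (SD, n = 4). Its log2 fold change was 0.19.

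Over the 6 lists of partners, 68 genes were listed and 54 tested. An unadjusted p below 0.05 was found for 2 higher and 1 lower gene, 5.56% of those tested, beside 4.62% of all genes. The study's threshold was passed by 1, or 1.85%, beside 1.53%, and 3 were higher in every treated mouse than in any control, or 5.56%, beside 2.66% of all genes in that direction. The median log2 fold change was 0.03 beside 0.09. The KEGG annotation in the deposited table assigns 22 genes to proximal bicarbonate reclamation, among them the 7. Of its 10 other tested genes 0 had an unadjusted p below 0.05, and 8 of the 10 log2 fold changes were above 0, where 67.1% of all tested genes were. With a common median ratio 6 of the 10 were above 0, beside 52.9% of all genes. Without rFGF4 mouse 1, 9 of the 10 were above 0, beside 52.2%, and 2 had an unadjusted p below 0.05, beside 4.23%. Without that mouse and db/db mouse 5, 9 of the 10 were above 0, beside 64.7%, and 2 had such a p, beside 5.68%.

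**Figure D5:**
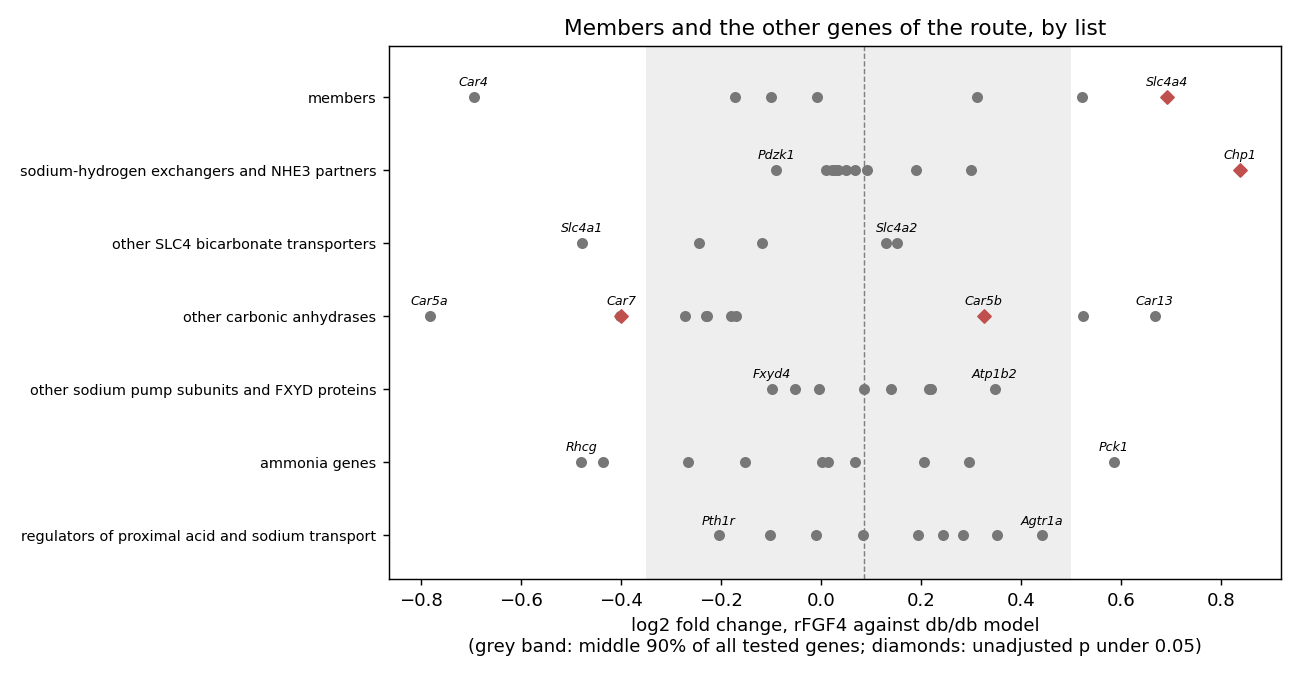
log2 fold change of rFGF4 against the db/db model for the 7 genes and the tested genes of 6 partner lists (horizontal axis), with 1 point per gene, red diamonds for an unadjusted limma p below 0.05, and a grey band from -0.35 to 0.50 that holds the middle of all tested genes between their 5th and 95th percentiles. *Slc4a4*, *Chp1* and *Car5b* are the diamonds on the right and *Car7* the one on the left.

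Markers of other cells were also summed in each library. Red blood cell markers summed to 120 to 2657 in the rFGF4 group and 1139 to 4325 in the db/db group, and 5 of 5 had a log2 fold change below 0, while red cells are known to express *Car2* as well. Distal convoluted tubule markers summed to 56.1 to 318 and 173 to 337, and intercalated cell markers to 75.8 to 120 and 78.3 to 143, cells in which *Fxyd2* and *Car2* are made as well. Genes of the handling and heat shock response summed to 42.7 to 133 in the rFGF4 group and 29.1 to 83.7 in the db/db group, with 6 of 6 above 0. Of the other marker lists, 0 of 4 genes of the thick ascending limb and 0 of 5 of principal cells had an unadjusted p below 0.05. Such a p was found for 1 of 8 of endothelium (*Tek*, lower) and 1 of 4 of podocytes (*Synpo*, higher). Beside these stand 1.06% of all tested genes lower and 3.56% higher. Log2 fold changes were above 0 for 6 of 6 macrophage and 4 of 4 podocyte markers, beside 67.1% of all tested genes. Below 0 were 4 of 4 distal convoluted tubule, 5 of 5 principal cell, 7 of 8 endothelial and 8 of 10 proximal markers. Thick ascending limb and intercalated cell markers were split evenly, and 4 of 5 tested lymphocyte markers were below 0. The part of these markers in the results was not tested. When the mean of the proximal tubule markers was included in the fit, a step chosen after seeing the data, the log2 fold changes were 0.78 for *Slc4a4*, 0.72 for *Slc9a3* and 0.37 for *Glud1*. These 3 of 7 had an unadjusted limma p below 0.05, where 7.62% of all genes did, and 2 of 7 passed the study's threshold, where 1.6% did.

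For each of the 7, the genes with the nearest profile were found among 13180 genes with a mean FPKM of at least 1, by the root mean square difference of centred log2(FPKM + 1) over the 8 libraries. *Car4* was nearest to *Egf* (0.21) and to *Mep1b* (0.25), a brush border protease, against a median of 1.16 over all genes. Like *Car4*, both were lowest in rFGF4 mouse 1, at 15.5% and 15.1% of the median of the other libraries taken as above. *Slc9a3* was nearest to *Cyp2a5* (0.20) and *Enpp2* (0.24), and *Slc4a4* to *Gm8666* (0.24) and *Gm38080* (0.25). *Atp1b1* was nearest to the mitochondrial enzyme genes *Ppa2* (0.07) and *Idh3g* (0.07), *Fxyd2* to *Sfxn2* (0.12) and *Cisd1* (0.13), *Glud1* to *Stk35* (0.05) and *Ndel1* (0.06), and *Car2* to *Arl6* (0.05) and *Mrpl13* (0.05). With 8 libraries such rankings are a description of these mice.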

How the data were processed

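Poly(A)-selected kidney RNA of 8 mice was sequenced, with 1 library per mouse. The authors assembled transcripts with StringTie, merged them with gffcompare and deposited the FPKM of 55401 genes. The submitters' processing notes also name HISAT2 2.0, Bowtie 0.12.2 and StringTie 1.3.0 and the build mm8, without their roles. As 99.5% of the identifiers were in GENCODE M21, positions and overlapping exons were taken from it on GRCm38. The table's columns of the authors' own comparison (fold change, p, q) were not used. A value of 0.0001 stands in place of 0.

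The 15150 genes that reached 0.5 FPKM in no fewer than 4 libraries were compared on log2(FPKM + 1). limma 3.58.1 (R 4.3.3) was fitted with a mean-variance trend, and p-values were adjusted by Benjamini-Hochberg over all tested genes. The tool that the study's methods name needs counts. Exact permutation tests over the 70 assignments of mice were two-sided. Promoter windows came from RefSeq (GRCm38.p6), where *Car2* and *Fxyd2* were not found. Groups and mouse numbers came from the labels. No label ties equal numbers to each other.

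The 18 lists (the 7 genes, partners and cell markers) were chosen with earlier results of these data known. The text names the 7 genes, a fixed set of partners (the results of some of them are not reported here), further listed partners with an unadjusted p below 0.05 or groups that did not overlap, and the 2 genes nearest to each of the 7. The alternatives were another pseudocount, no filter and a stricter one, scaling to a common median ratio, to equal sums (TPM) and to equal nuclear sums, no variance trend, a block for mouse number and each mouse left out. Leaving out both libraries that stood apart, the proximal marker covariate and the alternatives for nearest genes were added after seeing the data. Relative depth, from the ratio shared most often by low values, was 0.904 to 1.12.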

Additional observations from a re-analysis of the deposited data

Results flagged for a closer look

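In 5 of 60 groups of 4 libraries, 1 library lay far from the other 3 by Dixon's ratio (its gap to the nearest library over the group's range), where chance gives about 1 in 20. In 3 of them it was rFGF4 mouse 1, which was lowest for *Car4* (0.848), for *Atp1b1* (0.891) and for *Car4* to *Car2* (0.875). In db/db mice, mouse 2 was lowest for *Slc4a4* to *Slc9a3* (0.899) and mouse 5 lowest for the summed FPKM of the library (0.840). The 60 groups share libraries and are not independent of each other.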

How the results depend on the processing

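Of 126 log2 fold changes of the 7 genes under the alternatives, 111 kept their direction, and *Slc4a4*, *Slc9a3* and *Glud1* stayed above 0 in each. *Slc4a4* no longer passed an unadjusted p of 0.05 at 0.69 without a filter, at 0.69 with the filter at a mean FPKM of 5 and at 0.60 with a common median ratio, which leaves 0 of 7 genes past the study's threshold and 0 of 7 at that p in each of these 3, where 0.757%, 1.4% and 1.21% of all genes tested passed the threshold and 4.08% of 30244, 5.69% of 6944 and 4.89% of 15150 that p. All genes past the threshold numbered 232 (71.1% of them higher), 97 with the stricter filter, 183 (57.9% higher) with a common median ratio, 322 (86.6% higher) with equal nuclear sums and 537 (94.4% higher) with TPM, and 1 gene had an adjusted p under 0.05 without a filter. Equal sums move the median of all genes from 0.09 to 0.26 (TPM) or 0.16 (nuclear). Genes of the 7 at an unadjusted p under 0.05 then numbered 2 under either, beside 7.61% (TPM) and 7.45% (nuclear) of all genes, and the groups of 1 gene ceased to overlap under TPM, beside 4.25%. TPM turned *Atp1b1* (0.22), *Car2* (0.13), *Fxyd2* (0.055), *Car12* (0.038) and *Pdzk1* (0.14) above 0, and nuclear sums *Atp1b1* (0.092) and *Pdzk1* (0.011). A common median ratio turned *Atp1b3* (-0.0077), *Glul* (-0.028), *Got1* (-0.092), *Slc38a3* (-0.077) and *Slc9a3r1* (-0.067) below 0. With the proximal marker covariate, *Slc9a3* passed at 0.72, so that 2 of 7 were past the threshold and 3 at the unadjusted p (1.6% and 7.62% of all genes), and *Atp1b1* (0.076) and *Pdzk1* (0.040) turned. Without both libraries that stood apart, *Atp1b1* (0.029) and *Car14* (0.099) turned. Beyond the scaling, the cause of these changes was not tested.

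Equal mouse numbers did not go with equal deviations (correlations of -0.23, -0.16 and -0.39 for mice 2, 3 and 5). With only 3 such pairs, this cannot decide whether equal numbers mark a pairing. A replicate block on mouse number rests on 3 pairs. rFGF4 mouse 1 and db/db mouse 4 have no partner of equal number and do not enter its group difference, so its changes also reflect their omission. The block gave 263 genes past the threshold against 232, 1 of 7 past it and 2 of 7 at an unadjusted p under 0.05 (1.74% and 2.6% of all genes). It moved *Slc4a4* to 1.09, *Slc9a3* to 0.91, *Glud1* to 0.50, *Pck1* to 1.18 and *Car2* to -0.056, of which *Glud1* and *Pck1* newly had such a p, and turned *Atp1b1* (0.18), *Car4* (0.13), *Fxyd2* (0.11), *Atp1b3* (-0.076), *Car12* (0.11), *Car14* (0.40) and *Pdzk1* (0.28).

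With each mouse left out in turn, genes past the study's threshold numbered 188 to 580 (580 without rFGF4 mouse 5 and 434 without db/db mouse 5) and genes with an adjusted p under 0.05 numbered 0 to 1. Of the 7 genes, 0 to 1 passed the threshold (1.24% to 3.83% of all genes), 0 to 2 an unadjusted p of 0.05 (2.84% to 9.44%), and the groups of 0 to 2 did not overlap. The 2 at that p came without rFGF4 mouse 1, beside 4.23% of all genes, and without db/db mouse 4, beside 3.31%. The groups of 1 gene did not overlap without db/db mouse 3, beside 4.6%, and those of 2 without db/db mouse 4, beside 5.04%. *Slc4a4* lay between 0.49 and 0.95. Log2 fold changes that crossed 0 ran from -1.02 to 0.047 for *Car4*, -0.14 to 0.16 for *Atp1b1*, -0.34 to 0.084 for *Fxyd2*, -0.014 to 0.17 for *Atp1b3*, -0.041 to 0.12 for *Slc9a3r1*, -0.22 to 0.12 for *Pdzk1*, -0.0065 to 0.30 for *Slc26a6*, -0.30 to 0.0016 for *Car12*, -0.71 to 0.22 for *Car14*, -0.44 to 0.10 for *Car15*, -0.048 to 0.21 for *Glul*, -0.16 to 0.14 for *Slc38a3* and -0.082 to 0.13 for *Got1*. Of 126 repeats of the nearest genes, 116 kept the gene among the nearest 10. Depth in counts is unknown, so the precision of low FPKM values cannot be given.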
